A study of Mus musculus with 50 samples.

Results

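The genes described are 9 that act after the DNA glycosylases in base excision and single-strand break repair: Parp1, Parp2, Xrcc1, Lig1, Lig3, Polb, Apex1, Apex2 and Fen1. They were taken by name, not by any measured value, from 12819 rows of a deposited table of gene expression changes, and all 9 were found. The cells were V6.5 mouse embryonic stem cells of mixed C57Bl/6-129 background. In the knockout clones both endogenous Cdk12 copies were deleted (Cdk12 -/-) and a Flag- and HA-tagged Cdk12 transgene (Cdk12 Tg+) was driven by doxycycline (Dox) at 1 µg/mL, so that removing Dox depletes this kinase of RNA polymerase II. PolyA-selected RNA came from 2 such clones, numbers 28 and 36, in duplicate at 0, 24 and 48 h without Dox, which makes 4 libraries per time. Parental cells of clone 21, with floxed Cdk12 and no transgene (Cdk12 Fl/Fl; Cdk12 Tg-), had 17 days of Dox before the same withdrawal, with 2 libraries per time. Every knockout group, the 0 h group included, thus lacks endogenous Cdk12, and each clone is a single isolate.

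A damaged base is cut out by a glycosylase, and the abasic site left behind is opened by an endonuclease. A polymerase then fills the gap and a ligase seals it, in a short patch of a single nucleotide or in a long patch that displaces a flap. The poly(ADP-ribose) polymerases bind the nicked intermediates and recruit the scaffold protein Xrcc1. Pluripotent cells divide fast, and some of these enzymes, Lig1 and Fen1 above all, also join and trim Okazaki fragments in every S phase. Loss of CDK12 in human tumour cells is known for sensitivity to inhibitors of PARP, the protein that Parp1 encodes in the mouse.

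Each value below is a log2 change of the later time over 0 h from the authors' deposited table, in which the knockout libraries of a time were already combined. That table holds no value per library, so no SD, level or depth can be set beside a gene, and changes of different genes can be compared but not their levels. It does not state the direction, which was taken from how its columns order the times and from Cdk12 being lower later. In the authors' deposited table Cdk12 itself stood at -0.61 at 24 h and again at 48 h, uncalled, with Ccnk, its cyclin, at -0.02 at each time. The depletion itself could not be shown from these values. If the direction were the other way, every higher and lower below would be exchanged. Calls required a posterior probability of differential expression, the authors' modelled probability that a gene's mean differs between the times, of at least 0.95. In bulk RNA, fewer cells of a type and less RNA per cell cannot be told apart.

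None of the 9 genes was called at 24 h or at 48 h. Of all genes with a posterior probability in the authors' deposited table, 1.13% passed this threshold at 24 h and 7.69% at 48 h, and a count of 0 among 9 genes is near that background at either time. By direction, 0.45% rose and 0.679% fell at 24 h, and 3.72% rose and 3.97% fell at 48 h. The deposited adjusted p, a second statistic with no test or groups named, was at most 0.05 for 0.167% of genes at 24 h and 3.71% at 48 h. It passed for none of the 9, whose lowest value in the authors' deposited table was 0.416, for Apex1 at 48 h. Nor did any of them carry the authors' mark for a Dox effect at either time. Uncalled is not the same as unchanged: without library values no interval can be given for any of these changes.

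**Figure D1:**
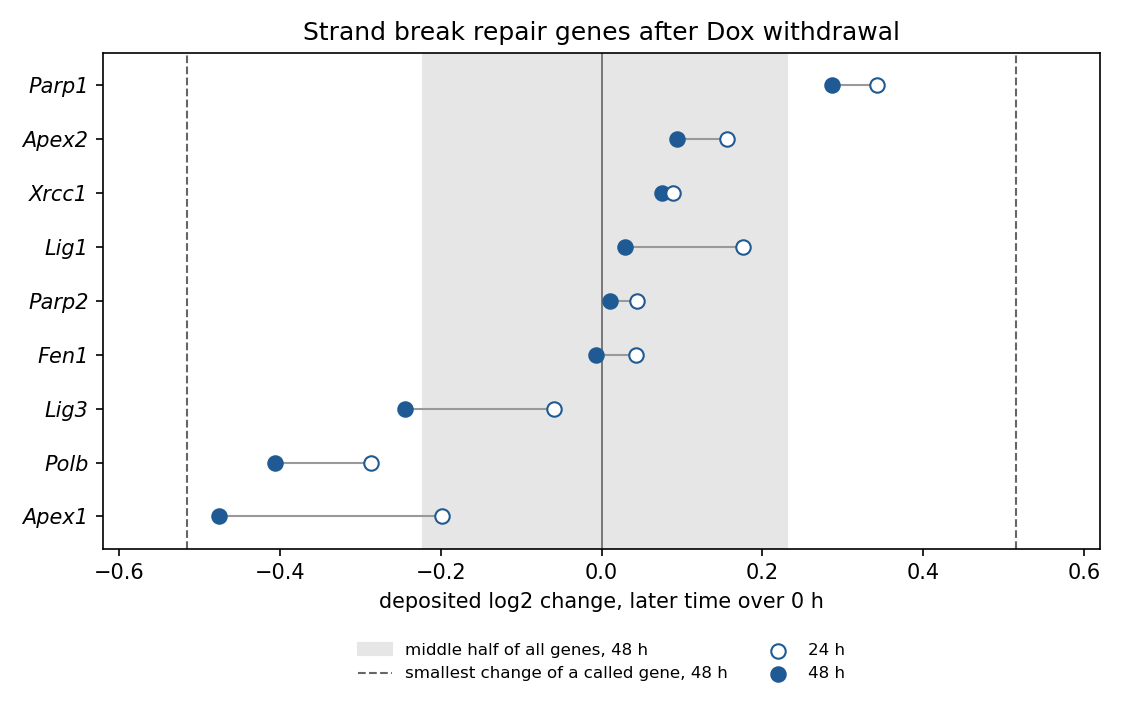
Deposited log2 change of the 9 genes, later time over 0 h, with open points for 24 h and filled points for 48 h. The grey band is the interquartile range of all genes at 48 h, from -0.22 to 0.23, and dashed lines mark the smallest change of any called gene, 0.52. Apex1, Polb, Lig3 and Parp1 lie outside the band at 48 h, and no point reaches a dashed line.

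The endonuclease gene Apex1 came closest to a call. Its product opens the abasic site by cutting the backbone on its 5′ side, and it carries most of this activity in mammalian cells. Apex1 stood at -0.20 at 24 h and at -0.48 at 48 h, which the authors' deposited table thus puts at 87.2% and then 71.9% of its 0 h value. Its posterior probability in the authors' deposited table was 0.00308 at 24 h and 0.873 at 48 h, short of the threshold at 48 h but above that of 90.5% of all genes. Its change at 48 h was at the 11.6th percentile of all genes. Of the 397 genes with a posterior probability whose change at 48 h lay within 0.05 of that of Apex1, 2.27% were called. No called gene had a change smaller than 0.52 at 48 h, so calls could occur only at the lower edge of this range. The share therefore says little about Apex1.

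The related gene Apex2, whose product has weak endonuclease and stronger 3′ exonuclease activity, stood the other way. The authors' deposited table puts it at 0.16 for 24 h and 0.09 for 48 h, with posterior probabilities of 0.0524 and 0.023. At 24 h the former was the highest posterior probability among the 9 genes, and Apex2 still lay inside the interquartile range of all genes at both times. Its locus, annotated over 161233 bases, shares 68063 with Tmem29 and 762 with Pfkfb1. The sources used here do not say whether counting used strand, so the value of Apex2 is uncertain.

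Among the gap-filling and sealing genes, Polb and Lig3 lay low and Lig1 did not. Polb encodes DNA polymerase beta, which fills the single-nucleotide gap and removes the sugar remnant. Polb stood at -0.29 at 24 h and -0.41 at 48 h, or 82.0% and 75.4% of 0 h, in the authors' deposited table. At 48 h this was the 14.2th percentile of all genes, and its posterior probabilities there were 0.0118 and 0.0776. A noncoding gene, A930013F10Rik, overlaps Polb and stood at 0.37 at 48 h in the authors' deposited table, uncalled. Reads of the overlapping 2439 bases could have gone to either row.

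Lig3 encodes the ligase that pairs with Xrcc1 and also serves mitochondrial DNA. It stood at -0.06 at 24 h and -0.24 at 48 h, or 96.0% and 84.4% of 0 h, in the authors' deposited table, with posterior probabilities of 0.00201 and 0.00862. Lig1, the replicative ligase that also seals long patches, was at 0.18 and then 0.03 in the authors' deposited table. Its posterior probabilities there were 0.00335 and 0.00361. The flap endonuclease gene Fen1 lay at 0.04 and -0.01 in the authors' deposited table, a value at 48 h of 99.5% of 0 h. At 48 h the replication-linked Lig1 and Fen1 thus stood at 102% and 99.5% of 0 h. The short-patch Polb and Lig3 stood at 75.4% and 84.4%, but Xrcc1, which pairs with Lig3, stood at 105%. Of the 19 partners of long-patch synthesis described below, 17 were below 0 and 2 above at 48 h, with a median of -0.25. The contrast between these pairs of genes was not planned, and no test of it could be made.

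Parp1, which makes most of the poly(ADP-ribose) at broken DNA, had the highest value of the 9 at both times. It stood at 0.34 at 24 h and 0.29 at 48 h, or 127% and 122% of 0 h, in the authors' deposited table. At 24 h it was at the 91.8th percentile of all genes and at 48 h at the 79.7th. Its posterior probabilities were nevertheless the lowest of the 9, 0.00122 and 0.00317 in the authors' deposited table. Parp2, the second enzyme activated by nicks, was at 0.04 and 0.01 there, close to the median of all genes. The scaffold gene Xrcc1 was at 0.09 and 0.07 in the authors' deposited table, with posterior probabilities of 0.00153 and 0.00705.

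**Figure D2:**
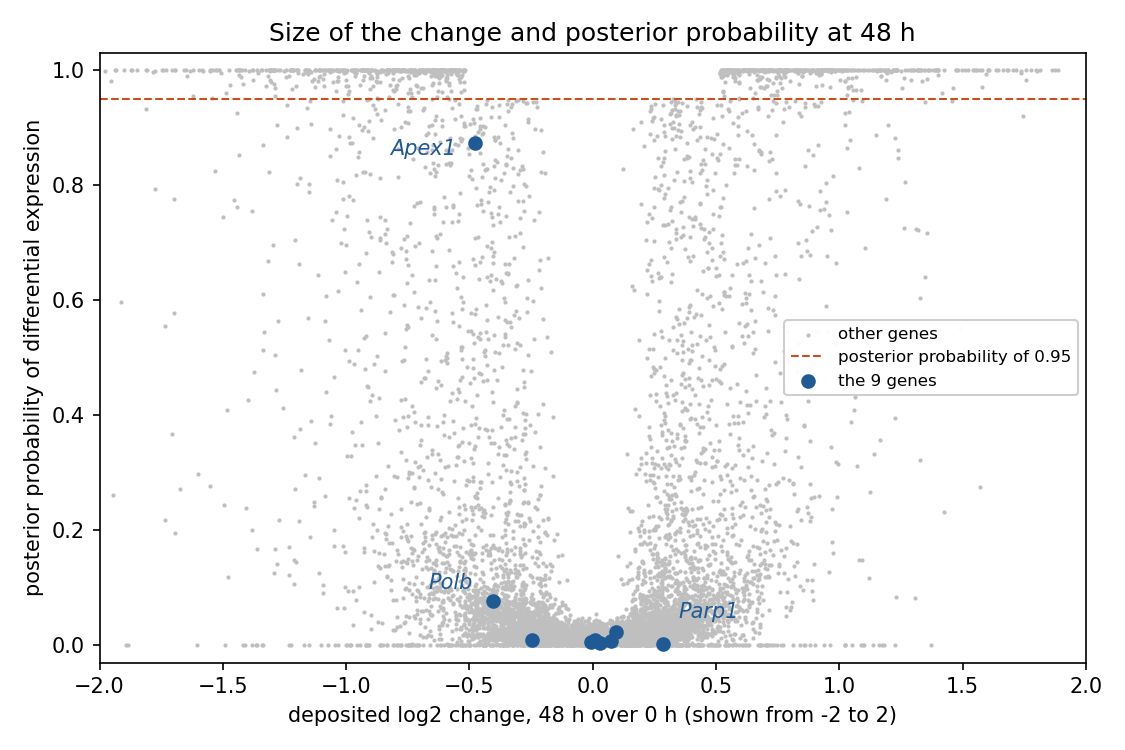
Posterior probability against deposited log2 change at 48 h, with all other genes in grey, the 9 genes in blue and a dashed line at 0.95. Apex1 sits at 0.873, Polb at 0.0776 and the other 7 close to 0. Above the line no gene has a change between -0.52 and 0.52.

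Size and posterior probability were not interchangeable in this table, and its shape limits what a call among these genes can mean. No called gene had a change smaller than 1.43-fold at either time, while 77 genes at 48 h had a posterior probability from 0.9 up to 0.95 with a smaller change than that. Rows with a change and no posterior probability numbered 358 at 48 h, and 356 of them lay below the same size. All 9 genes carried a posterior probability at both times. The largest difference among them was 1.27-fold at 24 h, for Parp1, and 1.39-fold at 48 h, for Apex1, so none reached the size at which this table holds any call. How the absent values arose was not tested.

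As a group the 9 genes stood around 0. Their median was 0.04 at 24 h and 0.01 at 48 h, against 0.01 over all genes at both times. The median size regardless of sign was 0.16 at 24 h, equal to the 0.16 of all genes, and 0.09 at 48 h, where all genes had 0.23. Of the 9, 5 lay inside the interquartile range of all genes at each time. At 24 h the 4 outside were Parp1, Lig1, Apex1 and Polb, and at 48 h Lig3 stood there in place of Lig1.

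The change was lower at 48 h than at 24 h for each of the 9, by 0.01 for Xrcc1 up to 0.28 for Apex1. Over all genes this held for 51.6%. The median difference between the times was -0.06 for the 9 genes and -0.01 for all genes. Both changes use the same 0 h libraries, the count was made after the values were seen, and no test of 48 h against 24 h can be made without library values.

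At 48 h the longer of the 9 genes tended to have the higher changes, though not in strict order, and this was not tested. Apex1, the lowest at 48 h, is the shortest at 2240 bases, the 3.27th percentile of the matched genes. Polb at 25346 bases and Parp1 at 32109 bases, with values on either side of 0, are both near the middle, at the 53.6th and 61.4th percentile. Fen1, the next shortest at 5262 bases, stood near 0. The longest of the 9, namely Apex2 at 161233 bases, Lig1 at 34252, Parp1, and Xrcc1 at 26740, all stood above 0 at 48 h. Every gene below 0 at 48 h was shorter than these, as was Parp2 at 13405 bases, which stood at 0.01.

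Apex1 and Parp2 both lie on chromosome 14, and each has a very close neighbour. Osgep, which encodes an enzyme of tRNA modification, starts on the other strand 55 bases from the annotated start of Apex1. Rpph1, the RNA component of RNase P, is annotated 125 bases from Parp2, and the pair is known for a shared promoter region, at which RNA polymerase III makes Rpph1. The bases between the annotated genes are shown because each is the only separate sequence between a pair of rows with different values. They were read from RefSeq on GRCm38.p6, at chr14:50924894-50924948 and chr14:50807772-50807896, on the plus strand. Capitals mark matches to CCAAT, letters known for NF-Y, to GGGCGG, known for Sp1, and to GCATGCGC, known for NRF1.

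Osgep to Apex1: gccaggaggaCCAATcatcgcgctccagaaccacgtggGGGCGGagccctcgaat

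Rpph1 to Parp2: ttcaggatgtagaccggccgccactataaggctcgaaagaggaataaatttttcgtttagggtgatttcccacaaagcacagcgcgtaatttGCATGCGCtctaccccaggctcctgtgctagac

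The 2 neighbours did not share the value of their partner. The authors' deposited table puts Osgep at 0.42 for 48 h, 134% of 0 h, beside Apex1 at 71.9%, and its posterior probability was 0.576. Only 26 bases beyond the other end of Apex1 lies Tmem55b, now named Pip4p1, at -0.40 in the authors' deposited table and with no posterior probability at 48 h. Rpph1 rose by 1.63 at 48 h in the authors' deposited table, to 310% of 0 h, with a posterior probability of 0.999999 and a second statistic of 5.74e-05. Since the RNA was polyA-selected and Rpph1 is not normally polyadenylated, its row covers only what such a selection retained. On the far side of Parp2, Tep1, a telomerase-associated protein gene, fell by 0.68 in the authors' deposited table, with a second statistic of 0.097. Parp2 between them stood at 101% of 0 h.

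**Figure D3:**
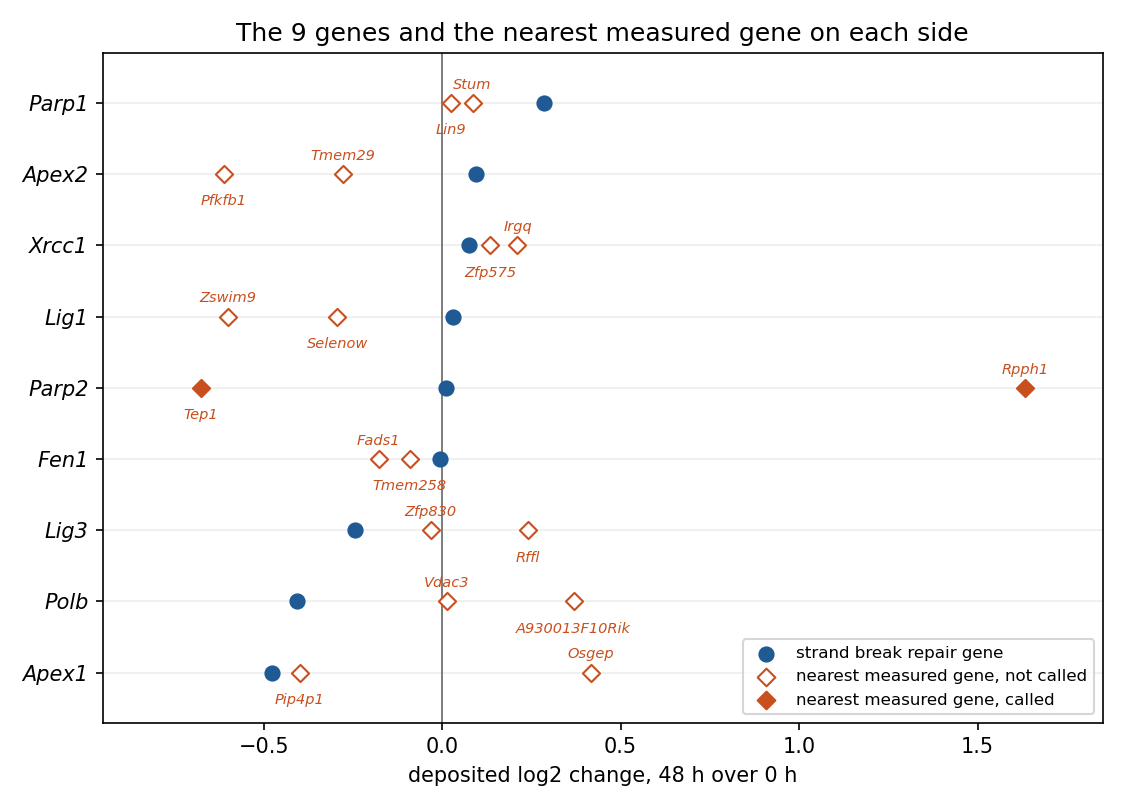
Deposited log2 change at 48 h of the 9 genes (blue points) and of the nearest measured gene on each side (diamonds, filled where called). Rpph1 at 1.63 and Tep1 at -0.68 are called on either side of Parp2 at 0.01, and Apex1 at -0.48 lies between Pip4p1 at -0.40 and Osgep at 0.42.

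Of the 18 neighbours, Rpph1 and Tep1 were called at 48 h, when Tmem55b had no posterior probability and so could not be called. None was called at 24 h. Over all genes 7.69% were called at 48 h and 1.13% at 24 h, so 2 calls among so few genes say little about the neighbours. The sign at 48 h differed from that of the neighbouring repair gene for 9 of the 18. Annotated overlap with a neighbour was found for 5 of the 9 genes, and beside Apex2 and Polb it concerned Lig1 with 6330408A02Rik, Lig3 with Rffl over 456 bases and Fen1 with 1810006K21Rik over 192 bases. For Lig1 the overlap was 1547 bases, and its neighbour stood at -0.60 at 48 h in the authors' deposited table where Lig1 was at 0.03.

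Promoter windows of 250 bases before to 50 after an annotated start were given by RefSeq for 7 of the 9 genes, without Polb and Apex2, in 10 windows. On either strand, GGGCGG was in windows of 5 of these genes, Parp1, Parp2, Lig1, Lig3 and Apex1, and in 35.7% of all 32851 windows. CCAAT was found for Xrcc1 and Apex1 and in 37.4% of all windows. The E2F letters TTTCCCGC, TTTGGCGC, TTTCGCGC or TTTGCCGC were found for Lig1, in 1 of its 3 windows, and in 2.26% of all. GCATGCGC was found for Lig1 and Parp2 and in 2.71% of all, and TATAAA in 1 of 2 windows of Fen1 and in 13.6% of all. CCGGAAG, an ETS-type motif, was in none of the 10 and in 8.86% of all.

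Genes that work beside the 9 gave a few calls. The counts in these small lists stand beside 1.13% of all genes called at 24 h and 7.69% at 48 h. Among end-processing and scaffold partners 1 of 9 was called at 48 h. This was Tdp1, which removes trapped topoisomerase I from DNA ends and hands the break to Xrcc1 and Lig3. Tdp1 fell by 1.06, to 48.1% of 0 h, with a second statistic of 0.00183 in the authors' deposited table. It was at -0.55 at 24 h there, uncalled. The list's median at 48 h was -0.34. Aptx, an end-cleaning gene whose product binds Xrcc1, was at -0.52 without a call in the authors' deposited table. Tdp2, which acts on trapped topoisomerase II, had the list's highest value, 0.21, in the authors' deposited table.

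The rest of the Parp family and the ADP-ribose turnover genes had 2 rises and 1 fall among 17 at 48 h, with a median of 0.09. Parp10, a mono-ADP-ribosyltransferase gene, rose by 1.04 and Parp4, that of the vault particle, fell by 0.90 in the authors' deposited table, with second statistics of 0.0437 and 0.0266. Zc3hav1, an antiviral zinc finger relative of the family, rose by 0.66 at 24 h and 0.53 at 48 h there, with second statistics of 0.942 and 0.383. Parg, which degrades the polymer that Parp1 makes, was at 0.06 and 0.09 in the authors' deposited table. None of the called relatives is a nick-activated enzyme like Parp1 and Parp2. Among the uncalled relatives, Parp3 was at -0.21 at 24 h and -0.57 at 48 h, or 67.4% of 0 h, in the authors' deposited table. Its posterior probability at 48 h was 1.22e-24.

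**Figure D4:**
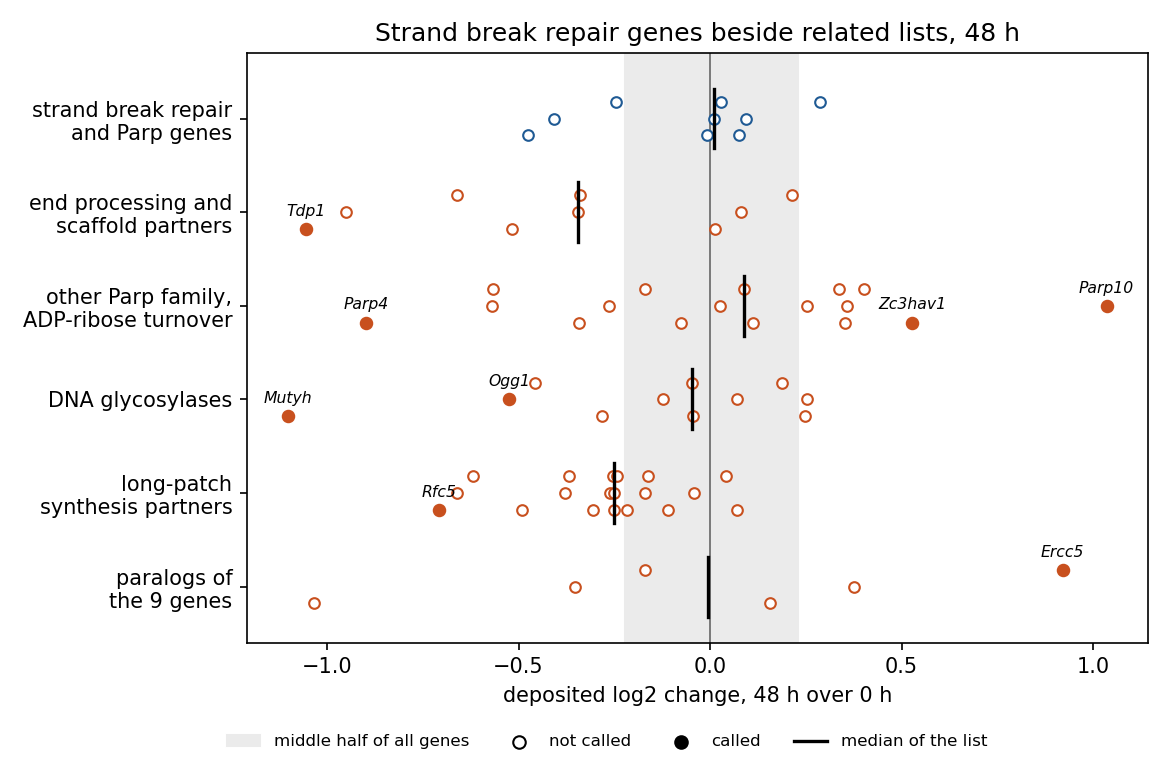
Deposited log2 change at 48 h of the 9 genes (blue) and of 5 related gene lists (orange), with 1 point per gene, filled and named where called, and a black bar at each list's median. The grey band is the interquartile range of all genes, from -0.22 to 0.23. The 9 genes hold no filled point, and each other list holds at least 1. Over all genes 7.69% were called at 48 h, and a count of 0 among 9 is near that share.

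Upstream of the 9 genes, 2 of 11 glycosylase genes fell at 48 h, with a list median of -0.05. Mutyh, whose product removes adenine paired with oxidised guanine, fell by 1.10 at 48 h in the authors' deposited table, with a second statistic of 0.00218. It also fell at 24 h, by 0.74 there, with a second statistic of 0.612. Ogg1, whose product removes oxidised guanine, fell by 0.52 at 48 h in the authors' deposited table, but it carries the authors' Dox mark and has a second statistic of 0.324. The call of Ogg1 ended under the second statistic, with a minimum of 1.5-fold and without marked genes. Beside Fen1 and Lig1, partners of long-patch synthesis had 1 fall among 19, Rfc5, a clamp loader subunit gene, by 0.71 in the authors' deposited table, and a median of -0.25. The posterior probability of Rfc5 was 0.962 and its second statistic 0.104 in the authors' deposited table, so the call ended at 0.99 and under the second statistic. The S phase list of 20 genes had a median of -0.07 at 24 h and -0.15 at 48 h. Among paralogs of the 9 genes 1 of 6 was called: Ercc5, a nuclease gene of the same family as Fen1, rose by 0.92 at 48 h in the authors' deposited table, with a second statistic of 0.0152, and carries the authors' Dox mark. At 24 h the calls in these lists were Zc3hav1 and Mutyh alone. Lists were not tested against each other or against the 9 genes.

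The table has no level per gene, so cell identity could not be checked by expression. All 13 pluripotency markers had rows, among them Pou5f1 and Nanog, which the authors' deposited table puts at 0.21 and -0.06 for 48 h, and the list's median was 0.16. Of these only Klf2 was called, at 24 h, when it rose by 0.60 in the authors' deposited table, with a posterior probability of 0.978 and a second statistic of 1. Of 15 markers of differentiated or feeder cells 11 had rows, and 3 rose at 48 h, namely Gata4, Gata6 and Col1a1 by 0.85, 0.79 and 0.89 in the authors' deposited table. Their second statistics there were 0.0278, 0.102 and 0.0517, so only Gata4 passed it, and Col1a1 carries the authors' Dox mark, which leaves 2 rises without marked genes. The median of the 11 was 0.26 at 24 h and 0.74 at 48 h. At 48 h 8 of them were above 0 and 3 below, so they did not all go the same way. Those below were Sox1 at -0.97, Nes at -0.18 and Vim at -0.09 in the authors' deposited table, all uncalled. Over all genes 3.72% rose at 48 h. The part of such cells in the values of the 9 genes was not tested.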

How the data were processed

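The values come from 1 table of the authors' comparisons of 0 h with 24 h and 48 h in the knockout clones. Per the file headers it gives a posterior probability (from 0 to 1), a log2 fold change, an adjusted p-value and a Dox mark per gene and time. The submitters' processing notes name STAR, RSEM, DESeq 1.22.1 and the builds mm9 and mm10 without roles, and what made each column was not given in the sources used here. RNA integrity numbers were 9.1 to 10 per the labels. The other 32 libraries, of chromatin, are not analysed here.

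The sign of each deposited change was turned, so that values read later time over 0 h. No model was fitted, and the depth is unknown. Counts, medians and percentiles were computed across all genes in Python 3.11.15 with pandas 2.3.3, and the counting was tested on simulated data. Length and neighbours came from RefSeq on GRCm38.p6, which held the symbol or a single-use synonym of 12692 of 12819 names. By the labels a time has 4 knockout libraries of 2 clones; which of them entered a deposited statistic is not stated, and duplicates may share a culture.

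The members, the 8 gene lists and the alternatives were chosen with earlier results of these data known. Named genes are the 9, Cdk12, Ccnk and Cdk13, the nearest neighbour on each side, and in each list the called genes or, with none, its extremes at 48 h. Aptx, Tdp2, Parg, Parp3, Pou5f1, Nanog, Sox1, Nes, Vim, Xrcc5, Xrcc6, Exo1 and Parp16 were named outside that rule, after their values were seen. Some list members are not reported here.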

Additional observations from a re-analysis of the deposited data

How the results depend on the processing

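None of the 9 genes was called at 24 h or 48 h by the second statistic at 0.05, which could have given another count. Nor was any called with a posterior probability of at least 0.99, with a minimum change of 1.5-fold, or without marked genes. These settings only narrow the main calls, which held none of the 9, so they could not have added a call. The median of the 9 genes at 24 h ranged from 0.03 to 0.04 and at 48 h from -0.07, as a mean, to 0.01. Centring on all genes turned the sign of 1 of 18 changes, Parp2 at 48 h, and of the median at 48 h. Counts in the related lists moved under alternatives added after the data were seen. Rises of Parp relatives at 48 h went from 2 to 1 under 0.99, 1.5-fold and the second statistic, and at 24 h from 1 to 0 under the last. Falls of glycosylases at 48 h went from 2 to 1 under the second statistic, 1.5-fold and without marked genes, and at 24 h to 0 under the second statistic. The long-patch fall went to 0 under 0.99 and the second statistic, the paralog rise to 0 without marked genes, the pluripotency rise at 24 h to 0 under 0.99 and the second statistic, and rises of differentiation markers from 3 to 1 under the second statistic. The causes were not tested. No paired analysis was possible because the table holds no values per library, and for the same reason no library could be left out.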

Other observations

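Both subunits of Ku, the ring that holds DNA double-strand ends, lay low without a call. The authors' deposited table puts Xrcc6 at -0.57 for 24 h and -0.95 for 48 h, or 51.8% of 0 h at the later time, with a posterior probability of 0.102. Xrcc5 was at -0.26 and -0.66 in the authors' deposited table, with a posterior probability of 0.0543 at 48 h. Exo1, a nuclease gene related to Fen1, was at -1.04 at 48 h in the authors' deposited table with a posterior probability of 0.0655, while Parp16 at 0.34 had one of 0.922. Among genes at or past the smallest called change, 1445 were uncalled at 48 h and 954 were called. These genes were chosen after their values were seen.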
